A study of Mus musculus with 18 samples.

Results

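Tissue-type plasminogen activator (*Plat*), urokinase (*Plau*), the urokinase receptor (*Plaur*) and 3 serpins, *Serpine2*, *Serpini1* and *Serpinf1*, were followed across podocytes, mesangial cells and endothelial cells of *Cd2ap* mutant and control glomeruli. These 6 genes, of 22909 gene symbols on the array, were chosen by name, with earlier results of these data known. Each was found in 1 transcript cluster, the set of probes that reads a gene. Mice homozygous for the *Cd2ap* tm1Shaw mutant allele and controls, all 5 weeks of age, carried a GFP reporter for 1 cell type, by which podocytes, mesangial cells (*Meis1-GFP*) and endothelial cells (*Tie2-GFP*) were sorted by FACS from isolated glomeruli. RNA of each sort was amplified and hybridized to an Affymetrix Mouse Gene ST array, with 3 arrays in each of 6 groups. The genotype field of the sample records gives wild type for all controls, and the titles of the mesangial ones say control, while the column headers of the mesangial control arrays carry a plus and a minus sign and those of the other control arrays a pair of plus signs. The paper names wild type mice as the source and also writes control for mesangial cells. Whether the mesangial controls were heterozygous could not be settled from these labels, and they are called control here. Each reporter was used for 1 cell type, so a difference between cell types cannot be told apart from one between reporter lines. The arrays of a group are called A, B and C.

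Plasminogen is cut to plasmin, the protease that dissolves fibrin and degrades matrix, by 2 activators. Tissue-type plasminogen activator works mainly on fibrin and is known as a product of vascular endothelium, while urokinase acts at the cell surface when bound to its receptor, which also binds integrins and has been studied in podocytes in glomerular disease. Serpins are protease inhibitors that trap their target in a covalent complex. *Serpine2* encodes a protease nexin that inhibits thrombin, urokinase and plasmin, *Serpini1* encodes neuroserpin, an inhibitor of tissue-type plasminogen activator best known from the nervous system, and *Serpinf1* encodes pigment epithelium-derived factor, a serpin without inhibitory activity that restrains angiogenesis.

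The reference promoters of both serpins that passed the genotype screen, and that of the receptor gene, are shown because the data bear on how these genes differ between groups. They are RefSeq sequences of build GRCm38.p6, from 250 bases before to 50 bases after the annotated start, written 5′ to 3′ on the strand of the gene. Of the 6 genes, 4 had a promoter in the table. Capitals mark matches on either strand to any of 3 motifs, with overlapping matches counted separately. The first was GGGCGG, the core of sites for the factor Sp1. Next came TGANTCA, the site of the factor AP-1. The last was TATAAA, the TATA box of core promoters. *Serpine2* lies at chr1:79858616-79858915 on the minus strand, *Serpini1* at chr3:75557243-75557542 on the plus strand and *Plaur* at chr7:24462233-24462532 on the plus strand.
Serpine2: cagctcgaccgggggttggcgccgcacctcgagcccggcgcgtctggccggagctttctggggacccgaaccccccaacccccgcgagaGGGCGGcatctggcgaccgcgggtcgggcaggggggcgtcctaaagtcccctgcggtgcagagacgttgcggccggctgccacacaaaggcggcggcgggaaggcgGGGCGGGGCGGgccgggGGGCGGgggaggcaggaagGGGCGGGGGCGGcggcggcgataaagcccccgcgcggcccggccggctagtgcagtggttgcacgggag
Serpini1: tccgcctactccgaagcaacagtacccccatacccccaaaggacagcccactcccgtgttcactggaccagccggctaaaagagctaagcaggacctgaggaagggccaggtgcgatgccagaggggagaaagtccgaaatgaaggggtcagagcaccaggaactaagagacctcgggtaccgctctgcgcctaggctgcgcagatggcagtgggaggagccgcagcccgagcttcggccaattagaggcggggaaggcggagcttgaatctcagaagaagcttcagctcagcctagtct
Plaur: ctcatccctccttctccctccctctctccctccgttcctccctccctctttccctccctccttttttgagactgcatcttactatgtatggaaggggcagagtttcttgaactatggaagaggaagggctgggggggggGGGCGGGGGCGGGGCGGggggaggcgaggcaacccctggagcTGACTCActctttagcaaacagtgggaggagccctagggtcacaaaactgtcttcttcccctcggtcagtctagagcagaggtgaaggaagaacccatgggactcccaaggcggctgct

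The *Serpine2* window held 6 matches to GGGCGG and had a GC content of 77.7%, against a median of 52.7% over all 32851 promoters of this length. The *Plaur* window held 3 matches to GGGCGG and 1 to TGANTCA. The *Serpini1* window matched none of these letters. The Sp1 letters were present in 35.7% of all promoters, the AP-1 letters in 7.81% and the TATA box in 13.6%. These matches describe sequence and not binding.

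The arrays were alike in overall signal, with medians from 62.8 to 71.6, and a signal of 100 was the minimum for a test. The targeted gene *Cd2ap* did not separate the genotypes as the labels would have it in every cell type. Its log2 fold change, mutant minus control, was -0.31 (adjusted p = 0.151 by limma) in mesangial cells, -0.23 (adjusted p = 0.504) in podocytes and 0.18 (adjusted p = 0.336) in endothelial cells, so each direction rests on the labels. Every mutant array lay below every control array in mesangial cells and podocytes and above in endothelial cells. Such separations were common, in 16.3%, 14.3% and 17.7% of transcript clusters tested in the same order of cell types and directions. Markers of the sorted types were high where they belong. The summed signal of 4 podocyte markers was 6521 to 8107 over podocyte arrays, that of 4 mesangial markers was 4082 to 7005 over mesangial arrays, and that of 6 endothelial markers was 13427 to 15660 over endothelial arrays. Other cell types were also seen. Control mesangial array C stood apart, with an endothelial sum of 6946 against 1626 and 2122 in arrays A and B, a podocyte sum of 2721 against 302 and 348, a sum of 5 tubule markers of 717 against 318 and 294, and a leukocyte sum of 718 against 312 and 280. Wild type podocyte array B had higher tubule (642 against 359 and 395) and leukocyte sums (615, with 407 the next highest) than arrays A and C, and mutant mesangial array B a higher leukocyte sum (647 against 341 and 285). Wild type podocyte arrays had mesangial sums of 1954 to 2637 and endothelial sums of 3813 to 5106, and the mutant podocyte arrays had lower ones, 621 to 1787 and 536 to 2198. In such sorted populations fewer cells of a type and less RNA per cell cannot be told apart.

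The activators and serpins were divided between the cell types of control mice. *Plat* was high in endothelial cells and podocytes and lower in mesangial cells, *Plau* and *Serpine2* were high in mesangial cells, *Serpini1* was highest in mesangial cells, and *Plaur* reached the minimum of 100 in every array of endothelial cells only. *Serpinf1* stayed below that minimum on all 18 arrays, between 56.5 and 82.8, and was not tested. To compare levels between control cell types, limma was fitted to the 18 arrays together, for 13523 transcript clusters, and a contrast passed at an adjusted p under 0.05 with more than a 1.5-fold difference. Of 15 contrasts in the other 5 genes, 12 passed, those of *Plau* and *Plaur* partly against signals below 100. Among all transcript clusters, 13.8% passed between podocytes and mesangial cells, 20% between podocytes and endothelial cells and 16.2% between mesangial and endothelial cells.

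**Figure D1:**
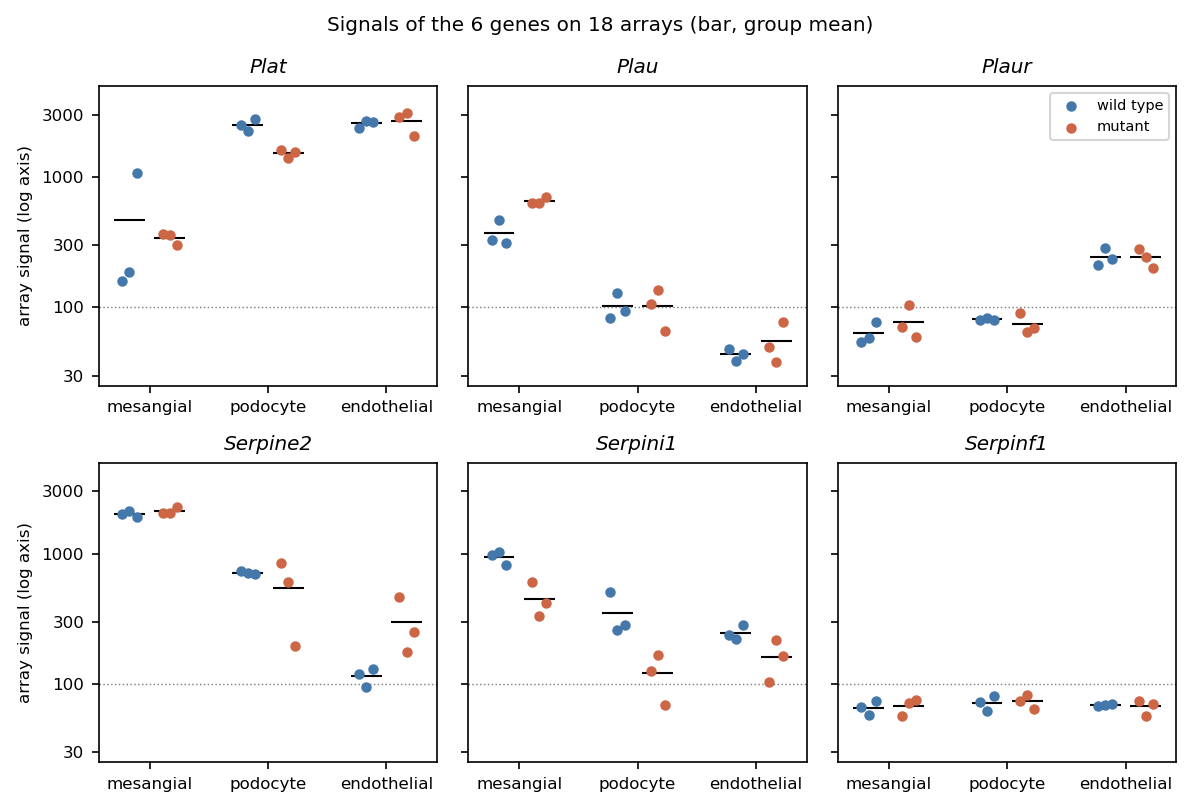
Signal of each of the 6 genes on the 18 arrays (log axis), by cell type, with control arrays in blue (labelled wild type), mutant arrays in orange, bars at group means and a dotted line at the signal minimum of 100. *Plat* is low in mesangial arrays except control array C at 1067, *Serpini1* is lower in every mutant array than in any control array of the same cell type, and *Serpinf1* stays between 56.5 and 82.8.

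*Plat* gave signals of 2390, 2707 and 2664 in wild type endothelial arrays and 2494, 2245 and 2814 in wild type podocyte arrays. These ranges overlapped, and the log2 difference, podocyte minus endothelial, was -0.04 (95% confidence interval -1.03 to 0.94, adjusted p = 0.957 by limma). Wild type podocyte arrays also held endothelial markers, at sums of 3813 to 5106 against 13427 to 15382 in wild type endothelial arrays. The part of these in the podocyte *Plat* signal was not tested. In control mesangial arrays A, B and C *Plat* gave 159, 187 and 1067. Arrays A and B lay far below both other cell types, and array C was the one with endothelial, podocyte and tubule markers. The log2 difference, mesangial minus endothelial, was -3.03 (standard error, SE, 0.46, adjusted p = 1.09e-04 by limma) and -3.90 without array C. Podocyte minus mesangial it was 2.98 (adjusted p = 1.80e-04), or 3.86 without array C. Both differences from mesangial cells thus became larger when that array was left out. The substrate of both activators is made mainly by the liver, and its gene *Plg* had mean signals of 31.5 to 34.7 in the 6 groups, below the minimum for a test.

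*Plau* gave signals of 331, 470 and 312 in control mesangial arrays, 83.2, 130 and 93.9 in wild type podocyte arrays and 48.3, 38.8 and 43.6 in wild type endothelial arrays. The 3 cell types did not overlap. Its log2 difference, mesangial minus endothelial, was 3.07 (SE 0.27, adjusted p = 2.64e-07 by limma), and podocyte minus mesangial it was -1.86 (adjusted p = 8.38e-05). Podocyte minus endothelial it was 1.21 (adjusted p = 0.00212). All 3 endothelial arrays and 2 of 3 podocyte arrays were below a signal of 100, near background, so the sizes of these differences are uncertain. Wild type podocyte arrays held mesangial markers, at sums of 1954 to 2637 against 6150 to 7005 in control mesangial arrays. The part of these in the podocyte *Plau* signal was not tested. Across mesangial and endothelial cells *Plau* had the reverse order of *Plat*. Its receptor gene *Plaur* gave 210, 283 and 234 in wild type endothelial arrays, and from 53.9 to 83.4 in the 6 control arrays of the other cell types. The log2 difference, mesangial minus endothelial, was -1.94 (SE 0.20, adjusted p = 1.89e-06 by limma), and podocyte minus endothelial it was -1.57 (adjusted p = 1.65e-05). Those 6 arrays were below 100, near background, so *Plaur* was tested mainly through its endothelial signals. The sizes of both differences are uncertain. Between podocytes and mesangial cells *Plaur* differed by 0.37 (95% confidence interval -0.06 to 0.80, adjusted p = 0.203), with both below 100. The high signals of urokinase and of its receptor were thus in different sorted populations.

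*Serpine2* gave 1996, 2110 and 1908 in control mesangial arrays, 741, 706 and 696 in wild type podocyte arrays and 119, 95.4 and 131 in wild type endothelial arrays. The order was the same as for *Plau*, with no overlap between the cell types. The log2 difference was 4.13 (SE 0.40, adjusted p = 8.04e-07 by limma) for mesangial minus endothelial, which is 17.5-fold, 2.65 (adjusted p = 8.14e-05) for podocyte minus endothelial and -1.49 (adjusted p = 0.0123) for podocyte minus mesangial. Podocyte arrays held mesangial markers, and the part of these in the podocyte signals of *Serpine2* and *Serpini1* was not tested. *Serpini1* gave 972, 1032 and 817 in control mesangial arrays, 510, 261 and 284 in wild type podocyte arrays and 239, 222 and 281 in wild type endothelial arrays. Mesangial arrays lay above all others, while podocyte and endothelial arrays overlapped. The log2 difference was 1.93 (SE 0.33, adjusted p = 3.39e-04 by limma) for mesangial minus endothelial, -1.48 (adjusted p = 0.00384) for podocyte minus mesangial and 0.45 (95% confidence interval -0.26 to 1.15, adjusted p = 0.342) for podocyte minus endothelial.

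The genotype comparison asked how each cell type differs between *Cd2ap* mutants and controls, screening at 1.5-fold and an unadjusted p under 0.05 and giving a Benjamini-Hochberg adjusted p beside each value. In mesangial cells 2 of the 5 members tested passed, *Plau* as higher and *Serpini1* as lower, beside 5.19% of the 11457 transcript clusters tested. In podocytes *Plat* and *Serpini1* passed as lower, 2 of 4 tested, beside 5.61% of 12113. In endothelial cells *Serpine2* passed as higher and *Serpini1* as lower, 2 of 4 tested, beside 3.82% of 11330. The members were chosen with earlier results of these data known, so these counts do not test them as a set. Of these 6 calls, that of *Plau* had an adjusted p under 0.05, just below it. The call of *Plau* and those of *Serpini1* in mesangial cells and podocytes crossed that value under other settings. That of *Serpini1* in endothelial cells did not, at an adjusted p of 0.176 to 0.352 by limma over the alternative settings. Nor did that of *Plat* in podocytes, at an adjusted p of 0.0794 to 0.352 by limma over these settings. With any 1 array left out, the adjusted p of *Plat* there was 0.0518 to 0.494. The call of *Serpine2* in endothelial cells crossed 0.05 without mutant array B (adjusted p = 0.0361 by limma). The threshold was passed by 2.92% of transcript clusters in mesangial cells, 0.0578% in podocytes and 1.29% in endothelial cells.

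**Figure D2:**
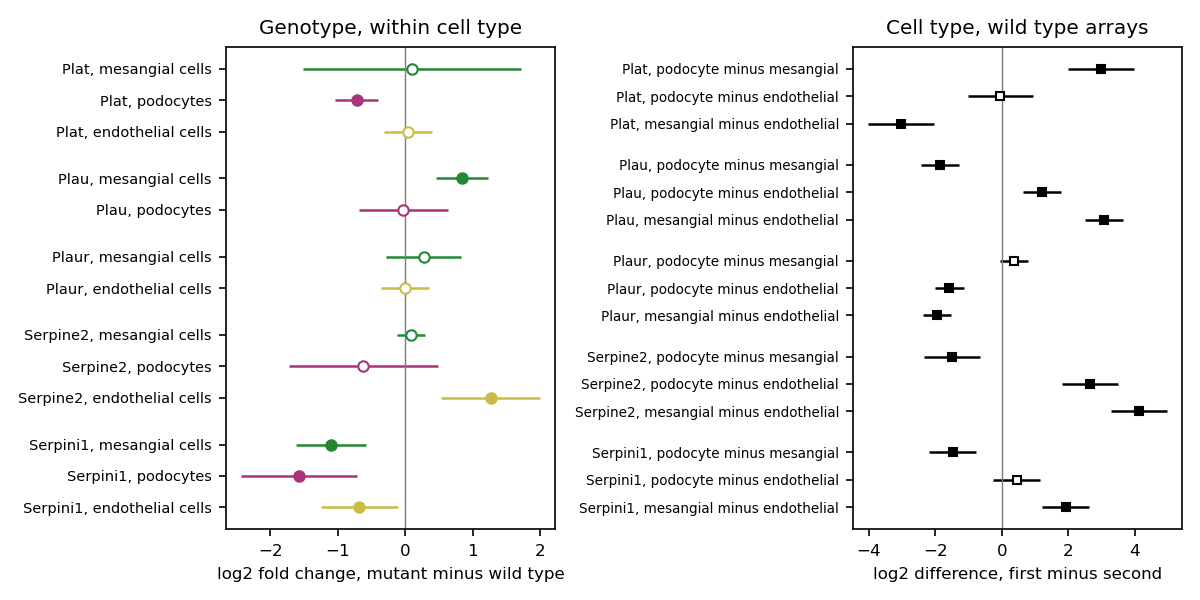
Left, log2 fold change between mutant and control arrays within each cell type for members with a signal of at least 100 on 1 of the 6 arrays. Right, log2 difference between cell types in control arrays. Points are limma estimates with 95% confidence intervals, filled where the threshold of that comparison was passed. *Serpini1* is left of 0 in all 3 cell types, and the interval of *Plat* in mesangial cells runs from -1.52 to 1.72.

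Urokinase rose in mutant mesangial cells. *Plau* gave 637, 629 and 699 in mutant arrays against 331, 470 and 312 in control arrays. Every mutant array lay above every control array, as in 12.3% of transcript clusters tested. The means were 655 ± 38.0 (SD, n = 3) and 371 ± 86.2 (SD, n = 3), a log2 fold change of 0.84 (SE 0.16, adjusted p = 0.0497 by limma), or 1.79-fold. Over the alternative settings the adjusted p ran from 0.0182 to 0.0885, and the log2 fold change from 0.83 to 0.89, and with any 1 array left out the adjusted p ran from 0.0240, without control array B, to 0.145, and the other leave-outs were above 0.05. Of 4 markers of smooth muscle and renin cells, *Acta2* was higher in the same mutant arrays, at 811, 1689 and 1562 against 627, 680 and 539, while *Ren1*, *Myh11* and *Cnn1* overlapped between genotypes. The part of such cells in the rise of *Plau* was not tested. In podocytes *Plau* gave 106, 137 and 66.1 in mutants against 83.2, 130 and 93.9, which overlapped, with a log2 fold change of -0.03 (95% confidence interval -0.69 to 0.63, adjusted p = 0.973). In endothelial cells it was below 100 on every array, from 38.3 to 77.0.

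*Plaur* was at 280, 244 and 202 in mutant endothelial arrays against 210, 283 and 234 in wild type, with a log2 fold change of -0.0029 (95% confidence interval -0.36 to 0.35, adjusted p = 0.991 by limma). The groups overlapped, and the interval leaves room for a change of either sign below the 1.5-fold of the screen, 0.58 on the log2 scale. In mesangial cells it gave 70.9, 104 and 59.0 in mutants and 53.9, 58.6 and 77.7 in controls, at a log2 fold change of 0.28 (adjusted p = 0.539), where 1 of the 6 arrays reached 100. In podocytes it lay between 64.3 and 91.4 on all arrays. Endothelial cells were thus the population in which the receptor gene could be compared at a signal above the minimum.

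*Plat* passed the screen as lower in mutant podocytes. It gave 1610, 1401 and 1557 in mutant arrays and 2494, 2245 and 2814 in wild type arrays, so that every mutant array lay below every wild type array, as in 14.3% of transcript clusters tested. The means were 1523 ± 109 (SD, n = 3) and 2518 ± 285 (SD, n = 3), a log2 fold change of -0.72 (SE 0.14, adjusted p = 0.135 by limma). With all 18 arrays in 1 fit it missed the screen, at an unadjusted p above 0.05 (adjusted p = 0.352 by limma). Endothelial markers moved with it, at sums of 2198, 1029 and 536 in mutant arrays A, B and C and 4395, 5106 and 3813 in wild type arrays. Markers of smooth muscle and renin cells moved the other way, at sums of 2070, 1875 and 925 in mutant and 651 to 661 in wild type arrays, with no overlap. Of these, the renin gene *Ren1* gave 789, 691 and 467 in mutant and 134 to 228 in wild type arrays, while *Acta2* and *Myh11* overlapped. The part of either marker set in the fall of *Plat* was not tested.

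In mesangial cells the genotype contrast of *Plat* turned on a single array. Mutant arrays gave 366, 360 and 299, control arrays A and B gave 159 and 187, and control array C gave 1067. Mutant signals were above A and B and below C. The log2 fold change was 0.10 (adjusted p = 0.949 by limma), and without array C it was 0.98 (adjusted p = 0.0226), within a range of -0.39 to 0.98 over the leave-outs. Endothelial sums were 2130, 2089 and 1788 in the mutant arrays, against the 1626 and 2122 of control arrays A and B. The single markers did not move alike. *Pecam1* gave 172, 191 and 90.8 in mutant arrays against 82.3 and 107, *Cdh5* gave 209, 262 and 96.2 against 99.0 and 121, and *Kdr* gave 153, 142 and 56.9 against 77.6 and 81.1, while *Tek* was lower, at 398, 323 and 324 against 575 and 783. *Emcn* was above A and B in every mutant array, at 1064, 1036 and 1114 against 667 and 943. *Flt1* gave 135, 135 and 105 against 125 and 86.6. The part of endothelial cells in the *Plat* signal of mutant mesangial arrays was not tested. In endothelial cells *Plat* gave 2901, 3091 and 2082 in mutants against 2390, 2707 and 2664, a log2 fold change of 0.04 (95% confidence interval -0.32 to 0.39, adjusted p = 0.910), with overlapping groups.

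**Figure D3:**
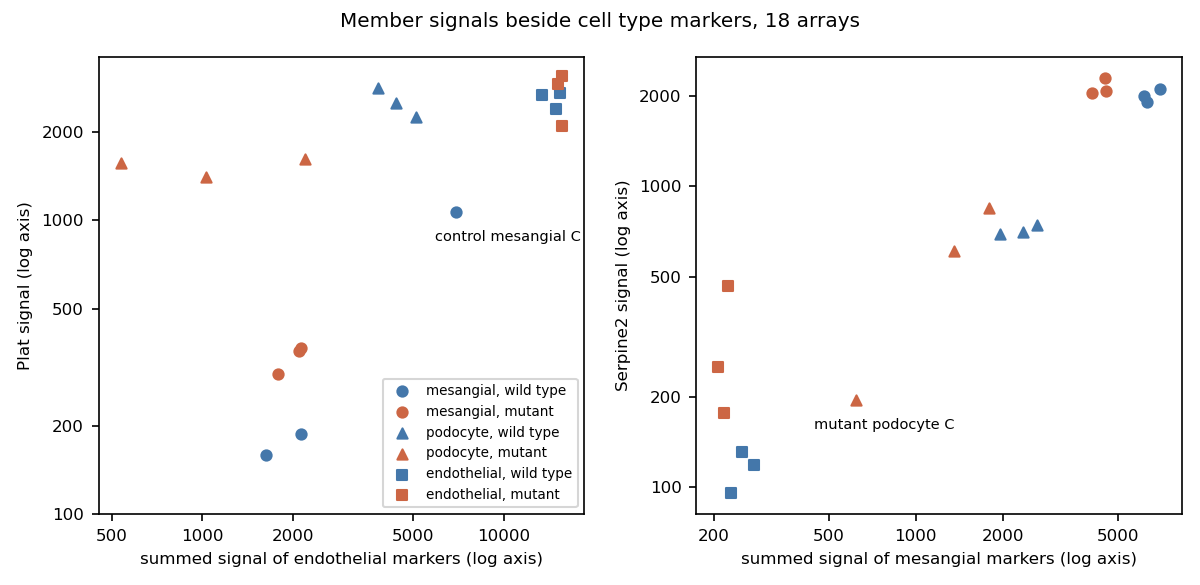
Left, *Plat* signal against the summed signal of 6 endothelial markers. Right, *Serpine2* signal against the summed signal of 4 mesangial markers. Each point is 1 of the 18 arrays on log axes, with shape by cell type and colour by genotype. Control mesangial array C stands at an endothelial sum of 6946 and a *Plat* signal of 1067, and mutant podocyte array C at a mesangial sum of 621 and a *Serpine2* signal of 195.

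*Serpine2*, the protease nexin gene, passed the screen as higher in mutant endothelial cells. It gave 467, 177 and 251 in mutant arrays and 119, 95.4 and 131 in wild type arrays, and no mutant signal was as low as a wild type one, a separation upward also seen in 17.7% of transcript clusters tested. The means were 298 ± 151 (SD, n = 3) and 115 ± 18.2 (SD, n = 3), a log2 fold change of 1.27 (SE 0.32, adjusted p = 0.111 by limma), or 2.41-fold. With any 1 array left out it was 0.88 to 1.58, the lowest value without mutant array A. The 4 mesangial markers stayed below 100 in all endothelial arrays, at sums of 207 to 224 in mutants and 229 to 276 in wild type. Markers of leukocytes summed to 619, 444 and 313 in mutant arrays A, B and C and to between 315 and 370 in wild type. Array A thus had the highest signal of both, and the part of leukocytes in *Serpine2* was not tested.

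In the cells with its highest level *Serpine2* differed little between genotypes. Mutant mesangial arrays gave 2067, 2042 and 2292 against 1996, 2110 and 1908, a log2 fold change of 0.09 (95% confidence interval -0.12 to 0.30, adjusted p = 0.601 by limma). In podocytes the mutant arrays were scattered, at 844, 608 and 195, against 741, 706 and 696 in wild type. The log2 fold change was -0.62 (SE 0.48, adjusted p = 0.580), with groups that overlapped. It was 0.0045 without mutant array C and -1.05 without mutant array A, where it passed the screen. The mesangial sum in mutant podocyte arrays A, B and C was 1787, 1360 and 621, in the same order as *Serpine2*. The endothelial sums (2198, 1029 and 536) and those of smooth muscle and renin cell markers (2070, 1875 and 925) had that order too. The part of any of these in the scatter was not tested.

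*Serpini1*, the neuroserpin gene, passed the screen as lower in mutants in each of the 3 cell types. None of these comparisons had an adjusted p under 0.05 by limma before settings were varied, and they share no arrays. In mesangial cells *Serpini1* gave 603, 334 and 415 in mutant arrays against 972, 1032 and 817 in controls, with no overlap. The means were 451 ± 138 (SD, n = 3) and 940 ± 111 (SD, n = 3), a log2 fold change of -1.10 (SE 0.22, adjusted p = 0.0530 by limma), which is 2.14-fold lower. In podocytes it gave 126, 167 and 68.3 in mutants against 510, 261 and 284, again with no overlap, and a log2 fold change of -1.57 (SE 0.37, adjusted p = 0.164). Over the alternative settings the adjusted p of *Serpini1* ran from 0.0280 to 0.101 in mesangial cells and from 0.0117, with all 18 arrays in 1 fit, to 0.292 in podocytes. Without mutant array A it was 0.0334 in mesangial cells. The fall in podocytes was 2.98-fold, with mutant array C below 100, and its log2 fold change ran from -1.86 to -1.21 with any 1 array left out. In endothelial cells *Serpini1* gave 103, 218 and 163 in mutants against 239, 222 and 281, where the highest mutant array lay just under the lowest wild type array, and a log2 fold change of -0.68 (SE 0.25, adjusted p = 0.215). Every mutant array below every control array was seen in 16.3% of transcript clusters tested in mesangial cells, 14.3% in podocytes and 7.34% in endothelial cells. In podocytes 0 members had all mutant signals above the wild type ones, a pattern seen in 6.97% of transcript clusters. The screen itself was passed as lower by 0.865% in endothelial cells.

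Of the 9916 transcript clusters tested in all 3 cell types, 2 (0.0202%) passed the screen as lower in every one, *Serpini1* and *Hbegf*, a growth factor of the EGF family that was named after its values were seen. The screen was passed as higher in every one by 12 (0.121%), and 11 (0.111%) were more than 1.5-fold lower in every one whatever their p. *Hbegf* had log2 fold changes of -0.66 in mesangial cells, -0.65 in podocytes and -0.61 in endothelial cells. The endothelial call of *Serpini1* was the weakest and was lost without mutant array A (-0.39), without wild type array A (-0.70) or without wild type array C (-0.58), and with all 18 arrays in 1 fit (adjusted p = 0.352). The mesangial and podocyte calls passed the screen under every alternative run. Mesangial markers were also lower in mutants, at sums of 4082 to 4549 against 6150 to 7005 in mesangial arrays and 621 to 1787 against 1954 to 2637 in podocyte arrays. Endothelial markers were lower in the same mutant podocyte arrays, at sums of 536 to 2198 against 3813 to 5106, and smooth muscle and renin cell markers were higher, at 925 to 2070 against 651 to 661. The part of any of these sets in the fall of *Serpini1* was not tested. In endothelial arrays the mesangial markers stayed below 100.

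The difference of the genotype effect between cell types was tested with limma on the 18 arrays together. Of 15 such contrasts in the 5 members above the minimum, 0 had an adjusted p under 0.05. The threshold was passed by 0.717% of transcript clusters between podocytes and mesangial cells, 2.11% between podocytes and endothelial cells and 1.07% between mesangial and endothelial cells. The effect on *Serpine2* in podocytes minus that in endothelial cells was -1.89 (SE 0.56, adjusted p = 0.0770). The effect on *Plau* in podocytes minus that in mesangial cells was -0.87 (adjusted p = 0.370). For *Serpini1* the difference between podocytes and mesangial cells was -0.48 (95% confidence interval -1.47 to 0.52, adjusted p = 0.752), so the size of its fall was not shown to differ between them. For *Plat* the effect in podocytes minus that in mesangial cells was -0.83 (adjusted p = 0.670) with all arrays and -1.70 (adjusted p = 9.47e-04) without control mesangial array C.

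Ordered by mean signal over the 6 groups, neighbours were often not separated. For *Plat* the mutant endothelial, wild type endothelial and wild type podocyte groups overlapped in turn, with mutant podocytes apart below them and both mesangial groups overlapping at the foot. *Plau* ran from mutant to control mesangial cells, each apart from the next, to overlapping podocyte groups and overlapping endothelial groups. *Serpine2* ran from overlapping mesangial groups through overlapping podocyte groups to mutant endothelial cells, which overlapped with mutant podocytes, and wild type endothelial cells apart at the foot. *Serpini1* was highest in control mesangial cells, apart from the rest, and lowest in mutant podocytes, which overlapped with mutant endothelial cells. *Plaur* had overlapping endothelial groups at the top, apart from 4 groups below that overlapped in turn.

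Signals of 11131 other transcript clusters with 1 gene symbol and a signal of at least 100 on 1 array were set beside each member over the 18 arrays on the log2 scale, which here mainly follows cell type. The closest to *Serpine2* were *Arhgdib* (Pearson's r = 0.984), *Angpt2* (0.968) and *Pik3r1* (0.966). For *Serpini1* they were *Gja5* (0.922), *Adamts5* (0.910) and *Tmem131* (0.909). For *Plat* they were *Tspan8* (0.964), *Mfsd6* (0.951) and *Pcsk5* (0.949), for *Plau* *Aldh2* (0.978), *Sgms2* (0.976) and *Cald1* (0.973), and for *Plaur* *Clec9a* (0.973), *Dram1* (0.971) and *Arrdc4* (0.970). These values describe likeness over arrays that share cell type and genotype.

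The other genes of the plasminogen system reported here come from a list of 14 by role, all on the array. Of these, 5 were tested in mesangial cells, 5 in podocytes and 6 in endothelial cells, and in limma 0 passed the screen in either direction, beside 5.19%, 5.61% and 3.82% of all transcript clusters. Those shares were made up of 2.08%, 1.26% and 2.96% as higher and 3.12%, 4.34% and 0.865% as lower. A list example, named after its values were seen, was *5033414D02Rik*, an older symbol of the plasminogen receptor gene *Plgrkt*. In endothelial cells its log2 fold change was 0.37 (95% confidence interval 0.01 to 0.72, adjusted p = 0.258 by limma), with overlapping groups. The plasminogen binding partners *Anxa2* and *S100a10*, an annexin and its S100 protein, had log2 fold changes from -0.31 to 0.28 over the 3 cell types. *Anxa2* gave 717, 942 and 1027 in mutant mesangial arrays against 1105, 1073 and 1118. Every mutant array lay below every control array, as in 16.3% of transcript clusters tested in mesangial cells. The log2 fold change of *Anxa2* there was -0.31 (95% confidence interval -0.64 to 0.02, adjusted p = 0.258 by limma). *S100a10* gave 1456, 1650 and 1807 in mutant endothelial arrays against 1602, 1357 and 1107, which overlapped, at 0.28 (95% confidence interval -0.06 to 0.63, adjusted p = 0.348). The median of the tested list genes was -0.02 in mesangial cells, -0.08 in podocytes and 0.24 in endothelial cells, against -0.02, -0.04 and 0.07 over all transcript clusters tested. The genes *Plg*, *F12*, *Serpinb2*, *Serpina5*, *Serpinf2*, *A2m*, *Cpb2* and *Vtn* were below 100 throughout.

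**Figure D4:**
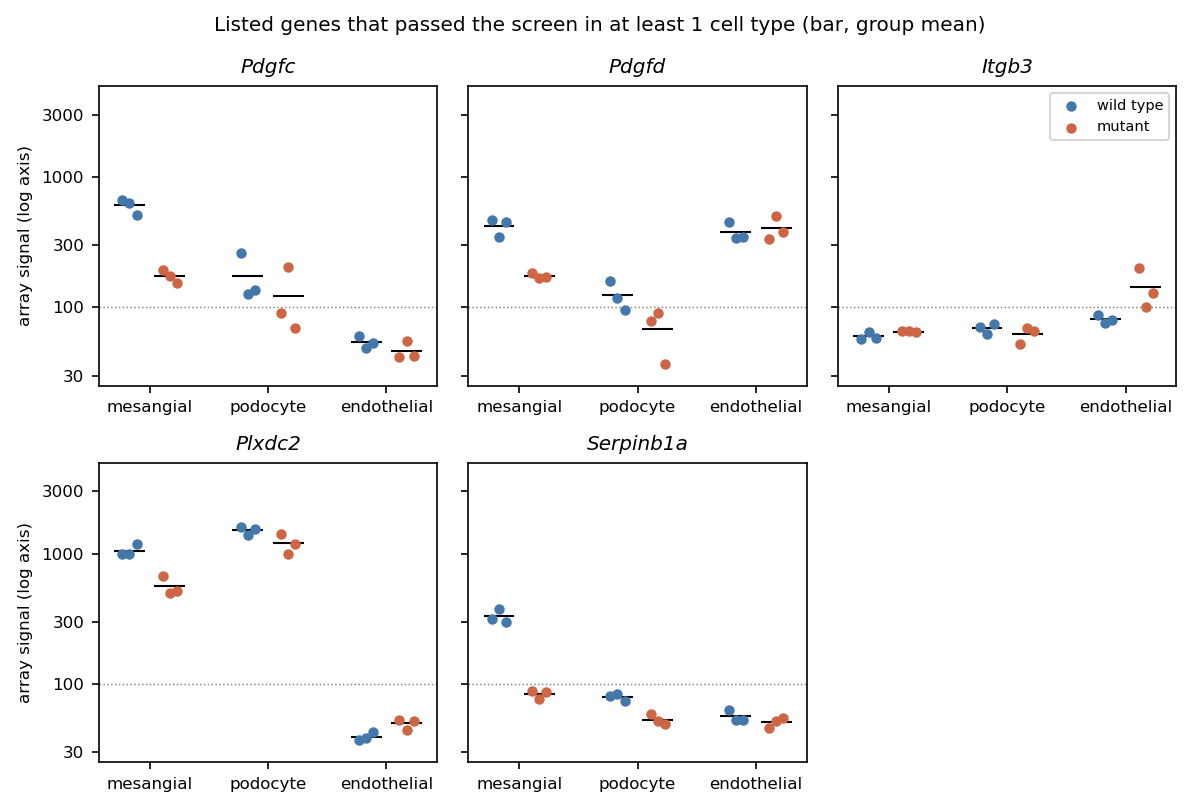
Signals on the 18 arrays (log axis) of 5 listed genes outside the members that passed the genotype screen in at least 1 cell type, with control arrays in blue (labelled wild type), mutant arrays in orange, bars at group means and a dotted line at 100. *Pdgfc*, *Pdgfd*, *Plxdc2* and *Serpinb1a* are lower in every mutant mesangial array than in any control one, as are 16.3% of transcript clusters tested there.

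Of 21 genes for receptors and substrates, all on the array, 15 were tested in mesangial cells, where 3 passed as lower, beside 3.12% of all transcript clusters. Both growth factors that the activators are known to cleave were among them. *Pdgfc*, cleaved by tissue-type plasminogen activator, gave 194, 175 and 154 in mutants against 670, 636 and 512, a log2 fold change of -1.80 (SE 0.14, adjusted p = 0.00349 by limma). *Pdgfd*, cleaved by urokinase, gave 183, 167 and 172 against 466, 350 and 451, a log2 fold change of -1.27 (SE 0.13, adjusted p = 0.00843). The third was *Plxdc2*, a proposed receptor of the *Serpinf1* product, at 672, 495 and 516 against 992, 989 and 1179, with -0.92 (adjusted p = 0.0293). Mesangial marker sums were lower in the same mutant arrays, at 4082 to 4549 against 6150 to 7005. Their part in these 3 calls was not tested. In podocytes 1 of 15 passed as lower, beside 4.34%, which was *Pdgfd* at 79.1, 90.5 and 36.8 against 158, 119 and 95.2, with -0.92 (adjusted p = 0.305). All 3 mutant arrays and 1 wild type array were below 100, so the gene was tested through its wild type signals and the size of this fold is uncertain. Its mean was 422 in control mesangial and 380 in wild type endothelial arrays, and the part of the lower mesangial and endothelial marker sums of mutant podocyte arrays in this call was not tested. In endothelial cells 1 of 10 passed as higher, beside 2.96%. It was *Itgb3*, an integrin subunit that partners the urokinase receptor, at 201, 100.2 and 128 against 88.1, 75.9 and 80.0, with 0.76 (adjusted p = 0.162). All 3 wild type arrays were below 100, so the gene was tested through its mutant signals, and the size of this fold is uncertain too. Mutant array A had the highest *Itgb3* signal and the highest leukocyte sum. These sums were 619, 444 and 313 in mutant arrays and 315 to 370 in wild type, and the part of leukocytes in *Itgb3* was not tested. The median of the tested list genes was -0.04 in mesangial cells, -0.24 in podocytes and 0.22 in endothelial cells.

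The thrombin receptor gene *F2r* did not reach the 1.5-fold of the screen. Its log2 fold change was 0.54 in mesangial cells (adjusted p = 0.0680 by limma), 0.36 in podocytes (adjusted p = 0.357) and 0.54 in endothelial cells (adjusted p = 0.0529), with no overlap between genotypes in mesangial and endothelial cells, where every mutant array lay above every control array in 12.3% and 17.7% of all transcript clusters tested. It was chosen after its values were seen, as the gene whose product the thrombin inhibitor *Serpine2* bears on.

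Other serpins were mostly below the minimum. The 58 symbols reported here fall on 51 transcript clusters, some shared by near-identical genes, of which 6 were tested in mesangial cells, 6 in podocytes and 9 in endothelial cells. Of these, 1 passed, as lower in mesangial cells, *Serpinb1a*, an intracellular inhibitor of neutrophil proteases, beside 3.12% of all transcript clusters that passed as lower and 5.19% in either direction. Its mean was 84.1 ± 6.61 (SD, n = 3) in mutant mesangial arrays and 330 ± 39.7 (SD, n = 3) in controls, with no overlap, a log2 fold change of -1.97 (SE 0.12, adjusted p = 0.00244 by limma). Such a separation downward was seen in 16.3% of transcript clusters tested in mesangial cells. All 3 mutant arrays were below 100, near background, so the size of that fold is uncertain, and the gene was tested through its control signals. Mesangial marker sums were lower in the same mutant arrays, and their part in this call was not tested. The complement inhibitor gene *Serping1* had mesangial means of 1544 in mutants and 1119 in controls and did not pass (log2 fold change 0.44, adjusted p = 0.231). The median of the tested serpins was 0.03 in mesangial cells, 0.22 in podocytes and 0.17 in endothelial cells.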

How the data were processed

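Gene expression was measured on 18 Affymetrix Mouse Gene ST arrays, 1 per sorted sample. The series description names an Exon array instead, while the transcript cluster annotation is that of the Gene array. The authors deposited a linear intensity per transcript cluster, which the sample records ascribe to RMA in Expression Console (background correction, quantile normalization and probe summary). A log2 form of the same table was not used here. Array background compresses the changes of dim genes, and 3 arrays per group limit precision. Columns were matched to groups by reporter and genotype sign, and not to single sample records. The series is described as biological triplicates. Log2 intensities were compared by moderated linear models (limma 3.58.1, R 4.3.3), without covariates and two-sided, where a transcript cluster reached a signal of 100 on 1 array of the comparison, and p-values were adjusted by Benjamini-Hochberg over all of them. The signal minimum, p under 0.05 and fold screen follow the paper's methods. Control cell types and differences of genotype effects were compared in 1 fit over 18 arrays. A gene with several transcript clusters was read from that of highest mean signal. Named genes are the members, *Cd2ap*, listed genes that passed the screen, the 3 most alike genes per member and marker genes, and others are named as chosen later or as list examples. The members and lists were chosen with earlier results of these data known. A listed gene and a podocyte marker are not reported here, and list counts and marker sums leave them out. The fits were tested on simulated data. Alternatives were a stricter or no signal minimum, all 18 arrays in 1 fit, a trended robust prior, subtraction of array medians, renewed quantile normalization, the mean over transcript clusters of a gene, only the control arrays of a pair, and leaving out each array. Sequencing libraries of the same study were not used here.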

Additional observations from a re-analysis of the deposited data

How the results depend on the processing

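The planned run on the deposited log2 columns was not made, because they could not be mapped as a second measure of the same group columns. No paired analysis was possible because the groups share no replicate numbers. Setting aside the leave-outs, 217 of 223 values of single members kept direction and side of the threshold, which for genotype effects is the screen at an unadjusted p. The adjusted p crossed 0.05 upward for *Plau* in mesangial cells in 3 settings (0.0855 with no signal minimum, 0.0885 in the joint fit and 0.0571 after median subtraction). It crossed downward for *Serpini1* in mesangial cells in 3 (0.0285 with the stricter minimum, 0.0280 with a trended prior and 0.0495 after median subtraction) and in podocytes in 1 (0.0117 in the joint fit). With all 18 arrays in 1 fit, 1 member in place of 2 passed in podocytes (*Plat* lost) and 1 in place of 2 in endothelial cells (*Serpini1* lost), where the spread of all groups is shared. Subtraction of array medians turned *Plaur* in endothelial cells to 0.069 and *Plat*, mesangial minus endothelial effect, to -0.022, and brought 1 difference of genotype effects past the threshold in place of 0, *Serpine2* in podocytes minus endothelial cells at -1.99 (adjusted p = 0.0492, range over alternatives 0.0492 to 0.115). Quantile normalization turned *Plat* in endothelial cells to -0.017. Other serpins that passed numbered 3 with no signal minimum, 2 with all 18 arrays in 1 fit and 2 with the mean over transcript clusters of a gene, in place of 1. Transcript clusters with an adjusted p under 0.05 numbered 335 in mesangial cells, against 578 with the stricter minimum and 729 with a trended prior. In podocytes they were 7, against 0 without a minimum, 837 in the joint fit and 4 after median subtraction. In endothelial cells they were 146, against 241, 83 without a minimum, 226 with a trended prior and 271 after median subtraction.

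Leaving out each array in turn, members that passed numbered 2 to 3 in mesangial cells, 2 to 3 in podocytes and 1 to 2 in endothelial cells. The control contrasts between cell types stayed at 12. Differences of genotype effects that passed ran from 0 to 2, being 2 without control mesangial array C (both of *Plat*) and 1 without mutant podocyte array A (*Serpine2*). Passing genes of the plasminogen list ran from 0 to 1 (1 without mutant mesangial array B), of the receptor list from 3 to 6 and of the serpin list from 1 to 2 (2 without mutant endothelial array A or C or mutant mesangial array B). The genotype effect ran from -0.39 to 0.98 for *Plat* in mesangial cells, from -0.072 to 0.21 for *Plat* in endothelial cells, from -0.26 to 0.26 for *Plau* in podocytes, from -0.11 to 0.12 for *Plaur* in endothelial cells and from -1.05 to 0.0045 for *Serpine2* in podocytes. The mesangial minus endothelial effect on *Plat* ran from -0.43 to 0.94, and its control difference, podocyte minus endothelial, from -0.13 to 0.037. The counts of transcript clusters with an adjusted p under 0.05 ran from 50 to 304 in mesangial cells, 0 to 344 in podocytes and 49 to 253 in endothelial cells, and those passing the screen in podocytes rose from 679 to 1235 without mutant array A. The causes of these shifts were not tested. Signals near background, as for *Plaur* outside endothelial cells, *Plau* in endothelial cells and *Serpinf1*, limit what a fold change can show.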
